A study of Homo sapiens with 22 samples.

Results

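Contractile actin and myosin genes were followed in RPTEC, a human renal proximal tubule epithelial line immortalized with hTERT, after loss of the histone H3 lysine 36 methyltransferase SETD2 or treatment with TGF-β. The 10 genes were taken by name from a table of 36859 genes in 22 RNA-seq libraries: ACTA2, TAGLN, CNN1, MYL9, TPM1, TPM2, TPM4, CALD1, MYH9 and THY1. All 10 had a row, and all 10 were among the 14585 genes tested, which reached 10 normalized counts in 2 or more libraries; CNN1, MYL9 and THY1 were under that level in several groups. The libraries formed 11 groups of 2. Untreated WT, the SETD2 knockout clones KO1 and KO2, and a line labelled KO2_Rescue were kept in 2% fetal bovine serum (FBS), as was WT given 10 ng/mL TGF-β for 72 h. Rescue1 and Rescue2, and WT transduced with eGFP (the empty vector control), OCT2, PRRX1 or SOX2, were grown in regular medium with 10% FBS. Each knockout line was 1 clone made by CRISPR/Cas9 with a guide in exon 3 of SETD2. Rescue1 and Rescue2 were clones of KO cells transduced with FLAG-tagged full-length SETD2 and selected in blasticidin, and the other transduced lines were selected in puromycin.

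In a contractile cell, actin filaments slide along bipolar filaments of myosin II, whose heavy chains carry the motor and whose regulatory light chains switch it on when phosphorylated. Tropomyosins lie along the actin filament, caldesmon and calponin hold back the motor, and transgelin bundles filaments. Smooth muscle α-actin in these bundles, called stress fibres, is the usual sign of a myofibroblast, the contractile cell of scars and fibrotic kidney, and TGF-β is its classical inducer. Many of these genes are targets of the serum response factor SRF, whose myocardin-related coactivators respond to the actin pool, so serum itself is a known stimulus.

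The promoter letters are shown first for the 4 genes that were called in TGF-β-treated WT, KO1 or KO2 and that had an entry at their main (MANE) transcript start in the RefSeq table (GRCh38.p14). Of the 10 genes 7 were matched in that table; TAGLN, MYL9 and THY1 were not. Each line is the stretch of 250 bases before the start, 5′ to 3′ on the strand of the gene, and capitals mark the TEAD element GGAATG and the SMAD element CAGAC on either strand (CATTCC and GTCTG on the other).
ACTA2 (chr10:88952774-88953023, minus strand): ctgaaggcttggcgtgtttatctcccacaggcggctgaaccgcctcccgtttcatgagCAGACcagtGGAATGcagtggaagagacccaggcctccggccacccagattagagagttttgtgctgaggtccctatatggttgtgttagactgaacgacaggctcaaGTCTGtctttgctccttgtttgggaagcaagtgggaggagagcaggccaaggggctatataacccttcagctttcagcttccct
CALD1 (chr7:134779384-134779633, plus strand): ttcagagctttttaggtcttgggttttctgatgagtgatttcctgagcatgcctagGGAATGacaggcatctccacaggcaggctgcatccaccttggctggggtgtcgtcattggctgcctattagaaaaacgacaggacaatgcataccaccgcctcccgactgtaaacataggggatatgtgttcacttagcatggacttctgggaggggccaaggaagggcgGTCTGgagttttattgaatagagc
MYH9 (chr22:36387968-36388217, minus strand): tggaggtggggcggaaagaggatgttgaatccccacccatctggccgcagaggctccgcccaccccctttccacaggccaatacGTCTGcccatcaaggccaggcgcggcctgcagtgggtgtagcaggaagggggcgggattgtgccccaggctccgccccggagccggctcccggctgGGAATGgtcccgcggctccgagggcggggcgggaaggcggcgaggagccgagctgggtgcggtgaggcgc
TPM2 (chr9:35689926-35690175, minus strand): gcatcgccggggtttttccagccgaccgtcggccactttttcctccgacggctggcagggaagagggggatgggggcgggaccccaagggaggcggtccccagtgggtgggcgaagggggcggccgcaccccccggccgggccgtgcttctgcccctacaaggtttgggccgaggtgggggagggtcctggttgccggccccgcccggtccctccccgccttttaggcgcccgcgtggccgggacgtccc

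ACTA2, CALD1 and MYH9 each held 1 TEAD element, starting at base -183, -194 and -70 from the start, and TPM2 held none. In the table of 35116 promoters, 14% held this element on either strand. The SMAD element was at -192 and -84 in ACTA2, at -24 in CALD1 and at -166 in MYH9, and 45.3% of all promoters held it. The CArG box of SRF, written strictly with an A/T core, was in 1.29% of all promoters and was matched in none of these 4 windows. This strict form leaves out stretches with a G or C in the core, such as ccctatatgg and ccttgtttgg in ACTA2. Among the 7 genes with an entry it was matched only at -173 from another start of TPM4. TAGLN, MYL9 and THY1 could not be searched. These are matches of letters in a window and were not tested as binding sites.

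The targeted gene gave the check of the labels. SETD2 had 1852 and 2061 normalized counts in WT and 1046 to 1130 in the KO1 and KO2 libraries. It had 9764 to 10445 in Rescue1 and Rescue2, but 834 and 820 in KO2_Rescue. The 2 libraries labelled KO2_Rescue thus held less SETD2 RNA than KO2, and any direction drawn from them is that of a label. Proximal tubule markers LRP2 and HNF4A were at most 3 normalized counts in every group, and of smooth muscle markers LMOD1 and MYOCD were too. The normalized counts summed to 11674491 to 16758645 per library. As these are normalized values, they do not give the read depth directly. A rough estimate from the spacing of the low values was 7740000 to 18600000 reads per library. Genes that every cell uses were uneven in the table: EEF1A1 had 139280 to 249273 normalized counts, GAPDH 247 to 8414 and EEF2 3.41 to 2015, and HPRT1 was listed at 0 in 6 libraries and POLR2A in 1. A low value or a 0 is therefore given as listed, and levels were not compared between genes.

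The 2 WT libraries stood apart from each other, and each contrast with WT rests on them. WT duplicates differed by 0.174 in log2 (median of absolute values over genes of 1000 normalized counts or more) and those of other groups by 0.064 to 0.159. TAGLN had 21533 against 4122 normalized counts, and COL1A1, a collagen gene of the fibroblast marker list, had 11919 against 532. The labels do not say whether duplicates were separate cultures. The p-values measure a spread between duplicates that is pooled over all 11 groups, not that of the WT pair alone. For TAGLN with TGF-β the SE was 0.45 in that fit and 0.94 when only the libraries compared were fitted.

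ACTA2, which encodes smooth muscle α-actin (ENSG00000107796, chromosome 10 from 88935074 to 88991339 on GRCh38, minus strand, 9 exons in its main transcript), was higher in both SETD2 knockout clones and not with TGF-β. It had 309.5 and 308 normalized counts in the WT libraries, 306 and 287 after TGF-β, 739 and 731 in the KO1 clone, and 1140 and 1094 in KO2. The KO and WT libraries did not overlap, and the TGF-β libraries were at or just below WT. The log2 change was 1.25 in KO1 (SE 0.11, adjusted p = 3.7e-07), 1.85 in KO2 (SE 0.11, adjusted p = 8.8e-09) and -0.06 with TGF-β (SE 0.11, adjusted p = 0.817). Here and below a log2 change is on the log2(normalized count + 1) scale, and a gene was called, or rose or fell, when its Benjamini-Hochberg adjusted p in limma over all 14585 genes was under 0.05 and its change was over 1. Leaving out single libraries kept both calls, with 1.82 to 1.88 in KO2, but the KO1 change was 0.84 when every library was scaled to the same total, a setting that moved the median of all genes by -0.39 in that contrast. ACTA2 overlaps ACTA2-AS1, FAS and STAMBPL1 on the opposite strand and the long noncoding RNA ENSG00000286116 on the same strand. The library kit was stranded, and whether strand was used in quantification is not given in the sources used here. Strand would not separate reads of genes on the same strand.

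ACTA2 was also above WT in the lines labelled as rescued. The KO2_Rescue libraries had 1372 and 1307 normalized counts, Rescue1 had 771 and 675, and Rescue2 had 699 and 727. All 6 were above both untreated WT libraries. The transduced WT libraries ran from 217 to 312, with the lowest in eGFP and the highest in SOX2, and so reached WT level only at their top. Against eGFP, which was grown in the same serum, ACTA2 was higher in the rescue clones (log2 change 1.58, SE 0.10, adjusted p = 1.6e-08). Against the KO clones it was -0.34 (SE 0.08, adjusted p = 0.00255), within the fold threshold, and 0.06 when every library was scaled to the same total.

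TAGLN encodes transgelin, an actin-bundling protein of smooth muscle (ENSG00000149591, chromosome 11 from 117199370 to 117207464, plus strand, 5 exons). It rose with TGF-β and fell in KO1, where ACTA2 was higher. It had 62984 and 69767 normalized counts after TGF-β, 3074 and 2491 in the KO1 clone, and 10076 and 10103 in KO2. Both TGF-β libraries were above the higher WT library, both KO1 libraries were below the lower one, and KO2 lay between the 2 WT libraries. The log2 change was 2.81 with TGF-β (SE 0.45, adjusted p = 4.8e-04), -1.77 in KO1 (SE 0.45, adjusted p = 0.006) and 0.10 in the KO2 clone (SE 0.45, adjusted p = 0.912). Without WT replicate 1 these were 4.01, -0.57 and 1.29, and dropping WT replicate 2 gave 1.62, -2.96 and -1.09; the KO1 call was lost in the first case, and KO2 was called in opposite directions in the 2 cases.

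**Figure D1:**
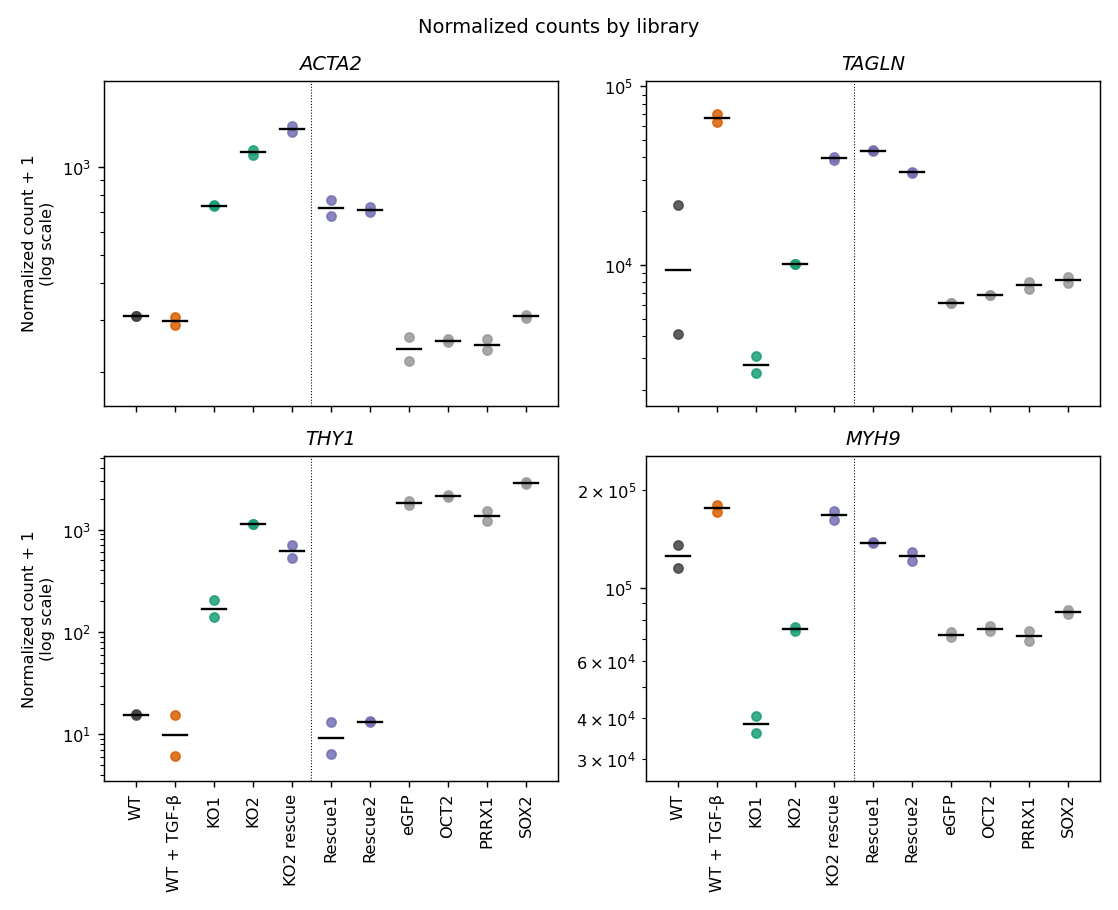
Normalized counts plus 1 (log axis) of ACTA2, TAGLN, THY1 and MYH9 in each library; points are the 2 libraries of a group, short lines the mean on the log scale, and the dotted line parts groups in 2% serum (left) from those in 10% (right). ACTA2 is 287 to 309.5 in WT and TGF-β-treated WT and 731 to 1140 in KO1 and KO2, while TAGLN is highest with TGF-β, where it reaches 69767.

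TAGLN was high again in the lines labelled as rescued, with 38765 and 40306 normalized counts in KO2_Rescue, 43376 and 43760 in Rescue1, and 33245 and 32899 in Rescue2. All 6 were above every KO, WT and transduced WT library and below both TGF-β libraries. The log2 change was 2.84 for the rescue clones against KO (SE 0.32, adjusted p = 3.7e-06) and 2.63 against eGFP (SE 0.39, adjusted p = 1.3e-04). The first contrast sets 10% against 2% serum and transduced, blasticidin-selected clones against KO clones. Serum, transduction, selection and SETD2 cannot be told apart in it. eGFP shares the serum of the rescue clones and was also transduced, but in WT and not KO cells, and was selected in puromycin. Against KO2, KO2_Rescue was higher by 1.97 (SE 0.45, adjusted p = 0.0113), in the same serum. That call was lost when any 1 of the 4 libraries was left out, with changes of 1.94 to 2.00. eGFP, OCT2, PRRX1 and SOX2 libraries had 6118 to 8613.

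MYH9, the heavy chain of nonmuscle myosin IIA (ENSG00000100345, chromosome 22 from 36281280 to 36388010, minus strand, 41 exons), fell in KO1. It had 115140 and 136115 normalized counts in WT, 180131 and 171412 after TGF-β, 36149 and 40519 in the KO1 clone, and 75971 and 74019 in KO2. The 4 groups did not overlap, with TGF-β highest, then WT, KO2 and KO1. The change was -1.71 in KO1 (SE 0.07, adjusted p = 1.2e-10), -0.74 in KO2 (SE 0.07, adjusted p = 2.1e-06) and 0.49 with TGF-β (SE 0.07, adjusted p = 2.7e-04), the last 2 within the fold threshold. MYH9 rose in the rescue clones against KO, where its libraries had 121643 to 138402 (log2 change 1.29, SE 0.05, adjusted p = 4.5e-11), and in KO2_Rescue against KO2 (1.16, SE 0.07, adjusted p = 7.6e-08), with 161915 and 172822. The latter call was lost under quantile normalization (0.84). Against KO2 alone the rescue clones were higher by 0.81. In the transduced WT lines it had 69018 to 86095, below both untreated WT libraries, and eGFP against WT was -0.80 (SE 0.07, adjusted p = 1.7e-06), a contrast in which serum and transduction changed together.

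THY1, a surface glycoprotein used as a mark of fibroblasts and mesenchymal stromal cells and not itself contractile (ENSG00000154096, chromosome 11 from 119415476 to 119424985, minus strand, 4 exons), had the widest range. It had 14.3 and 15.0 normalized counts in WT, 5.19 and 14.4 after TGF-β, 203 and 138 in the KO1 clone, and 1136 and 1135 in KO2. Both knockout clones were above every WT and TGF-β library. The change was 3.43 in KO1 (SE 0.37, adjusted p = 2.7e-06), 6.18 in KO2 (SE 0.37, adjusted p = 8.2e-09) and -0.68 with TGF-β (SE 0.37, adjusted p = 0.255). The TGF-β value was -1.34 and called without TGF-β replicate 2 (adjusted p = 0.0194), and -0.02 without TGF-β replicate 1. In the rescue clones THY1 had 5.45 to 12.5, a fall of 5.31 on the log2 scale against KO (SE 0.26, adjusted p = 4.2e-10), whereas KO2_Rescue had 529.5 and 707, where the change of -0.89 from KO2 did not pass (SE 0.37, adjusted p = 0.162). THY1 was also high in WT after transduction: those libraries had 1222 to 2936, above those of KO2, and eGFP rose by 6.85 against WT (SE 0.37, adjusted p = 6.5e-09). Serum and transduction cannot be told apart in that contrast. Against eGFP, in the same serum and also transduced, the rescue clones fell by 7.35 (SE 0.32, adjusted p = 4.0e-10).

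The tropomyosins, which share much of their sequence so that reads can be split among them, did not move as 1 group. TPM1 (ENSG00000140416, chromosome 15 from 63042620 to 63071915) gave 69027 and 46801 normalized counts in WT, 88337 and 96797 after TGF-β, 42650 and 42637 in the KO1 clone, and 55041 and 57348 in KO2. Its change was 0.70 with TGF-β (SE 0.12, adjusted p = 6.6e-04), -0.41 in KO1 (SE 0.12, adjusted p = 0.0112) and -0.02 in the KO2 clone (SE 0.12, adjusted p = 0.947), none past the fold threshold. TPM1 had 79899 and 81845 in KO2_Rescue and 44996 to 63164 in the rescue and transduced lines, most of it within the WT range.

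TPM2 (ENSG00000198467, chromosome 9 from 35681992 to 35690056) was higher with TGF-β, where it had 1788 and 1902 normalized counts against 893 and 558 in WT. The change was 1.38 (SE 0.17, adjusted p = 3.9e-05). Leaving out WT replicate 1 gave 1.72, and leaving out WT replicate 2 gave 1.05. The KO1 libraries had 735 and 713 and those of KO2 641 and 582, all within the WT range, with changes of 0.04 (SE 0.17, adjusted p = 0.896) and -0.21 (SE 0.17, adjusted p = 0.402). It was lower in each line labelled as rescued: 259 and 278.5 in KO2_Rescue, 75.0 and 63.3 in Rescue1, and 161 and 175 in Rescue2. TPM2 fell by 2.62 in the rescue clones against KO (SE 0.12, adjusted p = 1.7e-10), by 2.41 against eGFP (SE 0.14, adjusted p = 1.4e-08) and by 1.18 in KO2_Rescue against KO2 (SE 0.17, adjusted p = 2.4e-04). TPM2 was the 1 gene of the 10 that differed between the rescue clones, lower in Rescue1 than in Rescue2 by 1.27 (SE 0.17, adjusted p = 4.6e-04), where 0.994% of all genes were called. In eGFP, OCT2, PRRX1 and SOX2 it had 553 to 718.

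TPM4 (ENSG00000167460, chromosome 19 from 16067021 to 16103002) gave 159 and 141 normalized counts in WT, 291.5 and 249 after TGF-β, 101.5 and 168 in the KO1 clone, and 170 and 172 in KO2. The TGF-β and KO2 libraries were above both WT libraries, those of KO1 lay on either side, and no change was called: 0.85 with TGF-β (SE 0.48, adjusted p = 0.289), -0.20 in KO1 (SE 0.48, adjusted p = 0.79) and 0.19 in the KO2 clone (SE 0.48, adjusted p = 0.828). It had 204 and 276 in KO2_Rescue, 62.4 and 166 in Rescue1, 44.3 and 72.8 in Rescue2, and 31.9 to 102 in the transduced WT libraries. In eGFP, with 49.3 and 39.6, it fell by 1.74 against WT (SE 0.48, adjusted p = 0.015), a call that was lost without WT replicate 1 (-1.65, adjusted p = 0.0721) or eGFP replicate 2 (-1.58, adjusted p = 0.0833).

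CALD1, which encodes caldesmon (ENSG00000122786, chromosome 7 from 134744252 to 134970729, plus strand, 15 exons), rose with TGF-β. It had 10975 and 5824 normalized counts in WT, 19115 and 21474 after TGF-β, 9555 and 10782 in the KO1 clone, and 11846 and 12893 in KO2. The TGF-β and KO2 libraries were above both WT libraries, and KO1 lay between them. The change was 1.34 with TGF-β (SE 0.18, adjusted p = 1.3e-04), 0.34 in KO1 (SE 0.18, adjusted p = 0.157) and 0.63 in the KO2 clone (SE 0.18, adjusted p = 0.0181); without WT replicate 2 the TGF-β change was 0.88 and no longer called, and without WT replicate 1 the KO2 change was 1.09 and called. CALD1 had 31349 and 30798 in KO2_Rescue and 21346 to 24503 in the rescue clones, above every KO and transduced WT library (10637 to 12274 in the latter). It rose by 1.33 in KO2_Rescue against KO2 (SE 0.18, adjusted p = 2.1e-04), by 1.03 in the rescue clones against KO (SE 0.13, adjusted p = 1.2e-05) and by 1.05 against eGFP (SE 0.16, adjusted p = 1.6e-04). The last 2 calls lie at the fold threshold: they were lost at 0.99 without KO1 replicate 1 or eGFP replicate 2, and also without KO2 replicate 1.

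MYL9, the smooth muscle form of the myosin regulatory light chain (ENSG00000101335, chromosome 20 from 36541497 to 36551447, plus strand, 4 exons), was a low row in this table. It had 43.0 and 12.8 normalized counts in WT, 130 and 118 after TGF-β, 5.89 and 9.71 in the KO1 clone, and 3.27 and 8.66 in KO2. The KO libraries were below both WT libraries and the TGF-β libraries above them, yet no change from WT was called at a pseudocount of 1: 2.34 with TGF-β (SE 0.78, adjusted p = 0.052), -1.52 in KO1 (SE 0.78, adjusted p = 0.139) and -1.94 in the KO2 clone (SE 0.78, adjusted p = 0.0781). With a pseudocount of 5 all 3 were called, at 2.14 (adjusted p = 0.00353), -1.21 (adjusted p = 0.0443) and -1.46 (adjusted p = 0.0225). The TGF-β change without WT replicate 1 was 3.18 and called (adjusted p = 0.0276), and without WT replicate 2 it was 1.51. The KO2 change was also called without WT replicate 2 (-2.78, adjusted p = 0.0402) and under quantile normalization (-2.39, adjusted p = 0.0324). MYL9 had its highest values in KO2_Rescue, 291 and 298, a rise of 5.52 against KO2 (SE 0.78, adjusted p = 2.4e-04). Rescue1 and Rescue2 did not share it: their libraries had 1.53, 3.37, 4.46 and 0, and the call against KO (-1.41, SE 0.55, adjusted p = 0.0488) was lost with a pseudocount of 0.5 (adjusted p = 0.0505) and in most other alternatives. MYL9 was listed at 0 in all 8 transduced WT libraries, and eGFP against WT was called lower (adjusted p = 4.3e-04), with no fold given for a group at 0.

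CNN1, or calponin 1, a late mark of smooth muscle (ENSG00000130176, chromosome 19 from 11538767 to 11550323, plus strand, 7 exons), differed widely between duplicates. It had 41.9 and 1.20 normalized counts in WT, 113 and 89.6 after TGF-β, 5.33 and 44.1 in the KO1 clone, and 2.67 and 3.60 in KO2. Only the TGF-β libraries were clear of WT, and no change from WT was called: 3.38 with TGF-β (SE 1.51, adjusted p = 0.155), 0.80 in KO1 (SE 1.51, adjusted p = 0.719) and -1.24 in the KO2 clone (SE 1.51, adjusted p = 0.604). KO2_Rescue had 2.17 and 3.28, Rescue1 76.5 and 53.5, Rescue2 22.2 and 20.4, and the transduced lines 2.09 to 75.6. Without WT replicate 1 the TGF-β change was 5.53 and called (adjusted p = 0.0312), and leaving out WT replicate 2 gave 1.24. The sign of the KO1 and KO2 changes turned with 1 WT library, to -1.34 in KO1 without WT replicate 2 and 0.90 in KO2 without WT replicate 1.

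**Figure D2:**
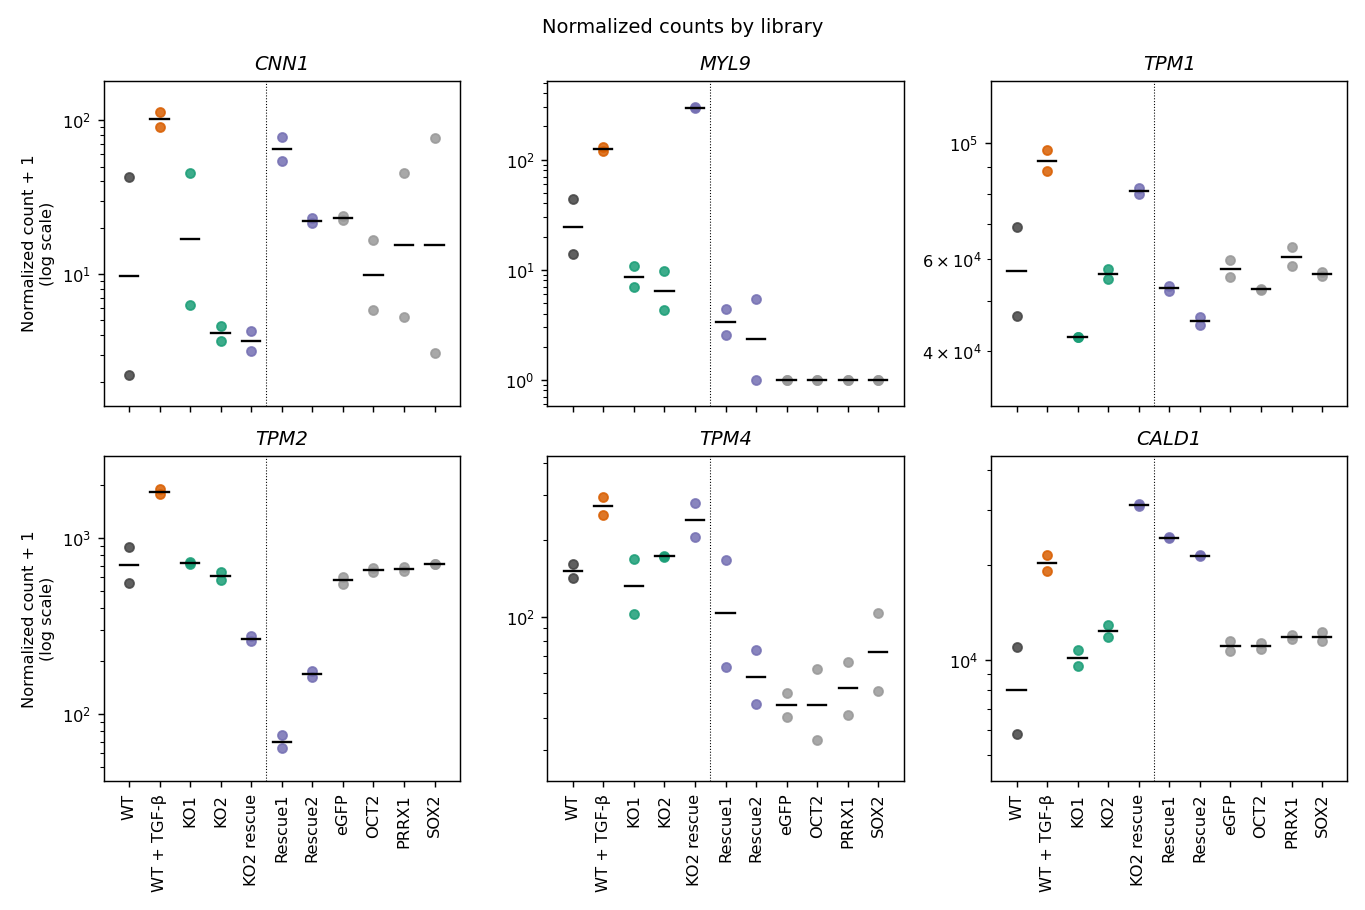
Normalized counts plus 1 (log axis) of CNN1, MYL9, the 3 tropomyosin genes and CALD1 in each library; points are libraries, short lines the mean on the log scale, and the dotted line parts 2% serum (left) from 10% (right). MYL9 reaches 298 in KO2_Rescue and is listed at 0 (plotted at 1) in all 8 transduced WT libraries, and TPM2 is lowest in Rescue1.

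Counted over the 10 genes, 3 were called with TGF-β, all higher (TAGLN, TPM2 and CALD1), where 7.84% of all genes were called, 3.58% higher and 4.26% lower. In KO1 4 were called, ACTA2 and THY1 higher and TAGLN and MYH9 lower, where 25% of all genes were called, 12% higher and 13.1% lower. In KO2 2 were called, ACTA2 and THY1, both higher, where 16.3% of all genes were called, 9.02% higher and 7.29% lower. The median change of the 10 genes was 1.09 with TGF-β, and it was -0.08 and 0.04 in the KO1 and KO2 clones, against 0.00 over all genes in each. These 3 contrasts share the WT libraries. When each was fitted on its own 4 libraries, the TGF-β count went from 3 to 0. The share of all genes called in that fit is not given here.

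**Figure D3:**
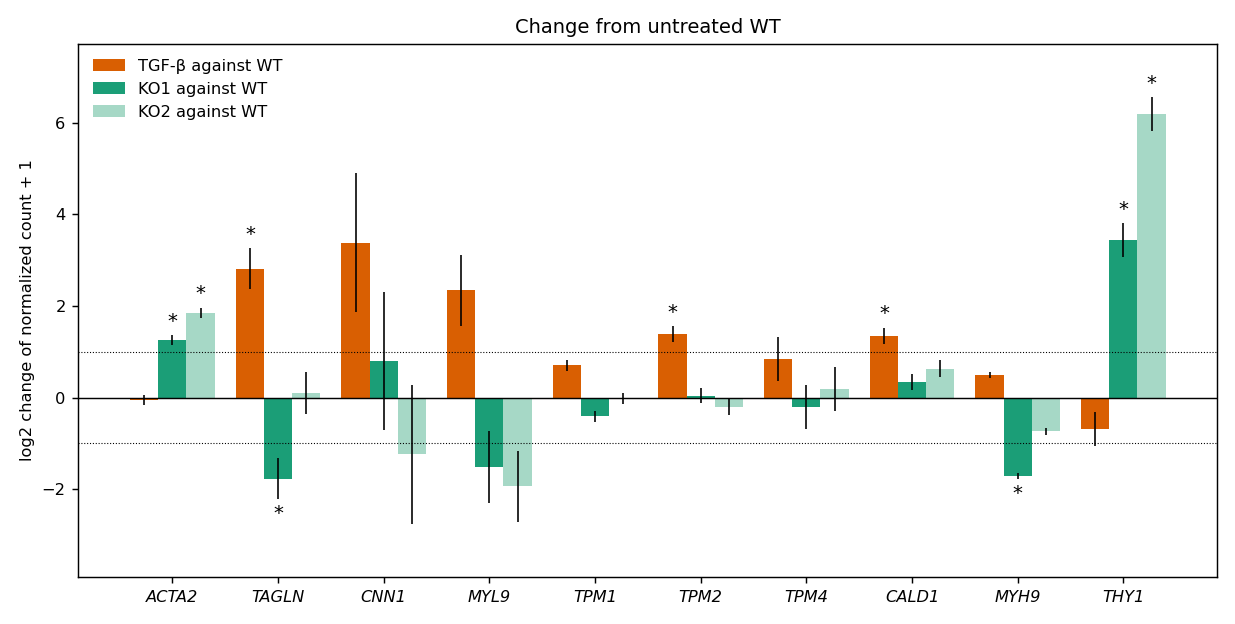
log2 change of normalized count + 1 from untreated WT for each gene with TGF-β and in the KO1 and KO2 clones; bars are the fitted change, lines its standard error, asterisks genes called, and dotted lines the fold threshold. ACTA2 and THY1 rise in both clones and not with TGF-β, where TAGLN, TPM2 and CALD1 rise.

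Set directly against each other, KO1 and KO2 as a mean and TGF-β-treated WT differed at 7 of the 10 genes, where 20.2% of all genes were called. ACTA2 and THY1 were higher in KO, by 1.61 (SE 0.10, adjusted p = 4.5e-09) and 5.49 (SE 0.32, adjusted p = 3.3e-09). TAGLN was lower by 3.65 on the log2 scale (SE 0.39, adjusted p = 3.2e-06), with MYL9 (-4.07, SE 0.68, adjusted p = 2.2e-04), TPM2 (-1.47, SE 0.14, adjusted p = 1.2e-06), MYH9 (-1.71, SE 0.06, adjusted p = 2.1e-11) and CNN1 (-3.60, SE 1.31, adjusted p = 0.043). CNN1 lost its call without KO1 replicate 1 and without either library of KO2 or TGF-β. Of the genes within the fold threshold or not called, TPM1 had the largest change that passed the p threshold (-0.92, SE 0.10, adjusted p = 4.5e-06).

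The 2 knockout clones were not alike. TAGLN was lower in KO1 than in KO2 by 1.87 (SE 0.45, adjusted p = 0.0114) and THY1 lower still (-2.75, SE 0.37, adjusted p = 1.2e-04), where 6.97% of all genes were called. The TAGLN call was lost without KO1 replicate 2 or either KO2 library, with adjusted p of 0.0542 to 0.0728. Of the changes that passed the p threshold MYH9 was next, at -0.97 (SE 0.07, adjusted p = 5.9e-07), just within the fold threshold; it was called under quantile normalization (-1.42) and with equal totals (-1.15). SETD2 RNA was alike in both, and fibroblast list RNA summed over 7 genes was 222599 to 236091 normalized counts in KO1 and 98561 to 102223 in KO2, most of it DCN.

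Against the KO clones, Rescue1 and Rescue2 together differed at 6 of the 10 genes, where 23.3% of all genes were called: TAGLN, MYH9 and CALD1 higher, and THY1, TPM2 and MYL9 lower. Which KO clone the rescue clones came from is not given in the sources used here. Against KO2 alone MYH9 (0.81), CALD1 (0.89) and MYL9 (-1.20) lost their calls and TPM4 gained one (-1.16, adjusted p = 0.0449). Against eGFP they differed at 5, where 13.1% were called: ACTA2, TAGLN and CALD1 higher, and THY1 and TPM2 lower. KO2_Rescue differed from KO2 at 5, where 4.17% were called: TAGLN, MYL9, CALD1 and MYH9 higher and TPM2 lower. eGFP differed from WT at 3, where 12.7% were called: THY1 higher and MYL9 and TPM4 lower. The KO2 libraries enter both contrasts with KO cells, and those of eGFP enter both contrasts that name it.

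**Figure D4:**
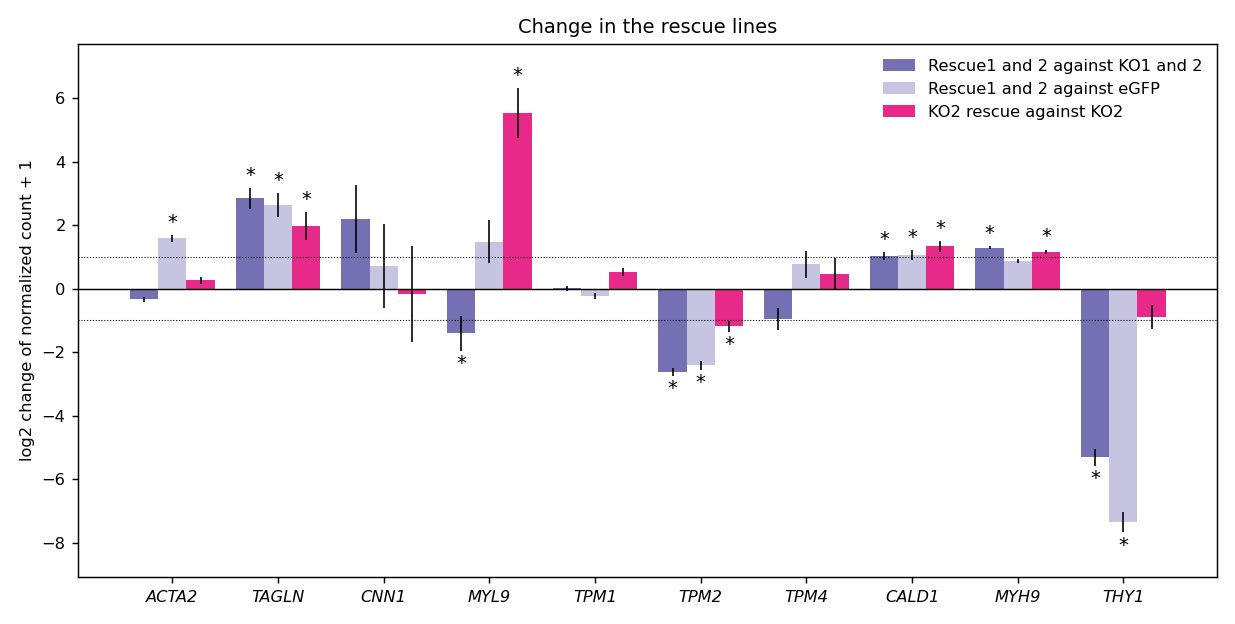
log2 change of normalized count + 1 for each gene in Rescue1 and Rescue2 against KO1 and KO2, in Rescue1 and Rescue2 against eGFP, and in KO2_Rescue against KO2; bars are the fitted change, lines its standard error, asterisks genes called, and dotted lines the fold threshold. TAGLN and CALD1 are higher and TPM2 lower in all 3, THY1 falls in the first 2, and MYL9 rises in the last.

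Ectopic SOX2, OCT2 or PRRX1, which are transcription factors, changed none of the 10 genes past the thresholds in limma against eGFP. The carried factor was itself higher in 2 of these lines: POU2F2, the gene of OCT2, gave 1251 and 1121 normalized counts in its libraries against 279 and 357 in eGFP, and PRRX1 had 395 and 404 in its own line and was listed at 0 in eGFP. SOX2 was not analysed here, so its level in the SOX2 line was not checked. Over all genes 0.0206%, 0.0343% and 0.0411% were called in the 3 contrasts, and 986, 1026 and 673 genes had an unadjusted p under 0.05. The change furthest from 0 among the 10 genes was -1.24 for CNN1 with OCT2 (SE 1.51, adjusted p = 0.972); THY1 was at 0.66 with SOX2 (SE 0.37, adjusted p = 0.806). For ACTA2 they were 0.37, 0.09 and 0.05 with SOX2, OCT2 and PRRX1, each with SE 0.11.

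Of the other genes of the contractile apparatus, 33 of 40 listed in 6 groups were tested. With TGF-β 3 were called higher and 1 lower, in KO1 1 higher and 8 lower, and in KO2 2 higher and 1 lower. Over all genes 7.84%, 25% and 16.3% were called in these contrasts. The median change of the 33 was 0.30, -0.68 and -0.34, against 0.00 over all genes.

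The cytoplasmic actins fell in KO1, ACTB close to the fold threshold. ACTB had 122366 and 132710 normalized counts in WT, 63601 and 59291 in KO1 and 91115 and 89767 in KO2, and ACTG1 had 92192 and 96886, 35452 and 32537, and 53194 and 54575. Both KO clones were below both WT libraries, with KO1 lower. ACTB changed by -1.05 in KO1 (SE 0.08, adjusted p = 6.9e-08), -0.49 in KO2 (SE 0.08, adjusted p = 2.3e-04) and 0.29 with TGF-β (SE 0.08, adjusted p = 0.0193). ACTG1 changed by -1.48 (SE 0.07, adjusted p = 1.7e-10), -0.81 (SE 0.07, adjusted p = 2.4e-07) and 0.22 (SE 0.07, adjusted p = 0.03). ACTB in KO1 was at -0.99 and not called without WT replicate 2. The TGF-β values turned sign with the scaling, to -0.19 for ACTB under quantile normalization and -0.01 for ACTG1 with equal totals. Muscle actins ACTA1 and ACTG2 were too low to test. MYH10, the heavy chain of nonmuscle myosin IIB, changed by -0.71 in KO1 (SE 0.10, adjusted p = 4.0e-05), by -0.74 in KO2 (SE 0.10, adjusted p = 4.4e-05) and was not called. MYL6, MYL12A and MYL12B were not called either, and MYH11 and MYH14 were not tested.

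Among relatives of tropomyosin, calponin and transgelin, 1 of 5 tested fell in KO1 and another in KO2, where 13.1% and 7.29% of all genes were called lower. CNN3, a broadly expressed calponin, had 508.5 and 916 normalized counts in WT and 289.8 and 103.9 in KO1, a change of -1.97 (SE 0.34, adjusted p = 3.0e-04) that ran from -2.70 without KO1 replicate 1 to -1.23 without KO1 replicate 2. SMTN, or smoothelin, had 2002 and 2368 in WT and 901 and 855 in KO2, a change of -1.31 (SE 0.14, adjusted p = 4.3e-06). Neither group of KO libraries overlapped WT. Of 7 regulators of the light chain, MYLK, the light chain kinase, fell with TGF-β, from 9664 and 14132 to 3457 and 3221 (-1.81, SE 0.13, adjusted p = 3.8e-07), and in KO1, to 5979 and 5172 (-1.07, SE 0.13, adjusted p = 1.2e-05), where the call was lost without WT replicate 2 (-0.80) or KO1 replicate 2 (-0.97). ROCK2, a kinase that restrains the light chain phosphatase, had 14.6 and 111 in WT and was listed at 0 in both KO1 libraries, with a called fall (adjusted p = 0.0025) and no fold given. Of the SRF group, MRTFB rose with TGF-β, from 1224 and 857 to 2511 and 2376 (1.25, SE 0.22, adjusted p = 0.00109); without WT replicate 2 the change no longer passed the fold threshold, and the call was lost. SRF was not analysed here.

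All 12 stress fibre and focal adhesion genes were tested. With TGF-β 2 rose, in KO1 1 rose and 3 fell, and in KO2 2 rose, where the shares over all genes were again 7.84%, 25% and 16.3%. PALLD, which encodes the stress fibre protein palladin, was called higher in each: it had 5615 and 2331 normalized counts in WT, 12637 and 13053 after TGF-β, 10789 and 12124 in the KO1 clone, and 11860 and 12248 in KO2. Its changes were 1.83, 1.66 and 1.74 (each SE 0.24; adjusted p = 9.3e-05, 6.1e-05 and 6.1e-05). Without WT replicate 1 they were 2.46, 2.29 and 2.37, and dropping WT replicate 2 gave 1.19, 1.03 and 1.10. Fitted on only the libraries compared, each change kept its size but lost its call (adjusted p = 0.179, 0.111 and 0.102 in limma). VCL, which links actin to adhesions, fell by 1.39 in KO1 (SE 0.05, adjusted p = 1.4e-11), and the cross-linkers FLNA (-1.31, SE 0.15, adjusted p = 5.1e-06) and ACTN4 (adjusted p = 4.2e-08) fell too. PDLIM7 rose with TGF-β by 1.06 (SE 0.12, adjusted p = 2.5e-05) but had 0.86 without WT replicate 2 and 0.83 with equal totals. SYNPO2 rose in KO2 by 2.06 (SE 0.61, adjusted p = 0.0193), from 18.7 and 7.64 to 34.9 and 81.5, and lost its call without KO2 replicate 2 (1.46, adjusted p = 0.187) or WT replicate 2 (1.47, adjusted p = 0.173). In the rescue clones against KO 11 of the 33 were called, all higher, where 23.3% of all genes were called and 1652 of 14585 were higher. Among the 11 were ACTG1 (1.18, SE 0.05, adjusted p = 3.7e-11) and VCL (1.27, SE 0.03, adjusted p = 5.7e-13). Serum, transduction, selection and SETD2 cannot be told apart in that contrast. Against eGFP, in the same serum, 6 of the 33 were called higher and 1 lower, where 13.1% of all genes were called. ACTG1 was not called there.

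Marker lists of other cell types moved with the groups. The summed fibroblast list was 831 to 12429 normalized counts in WT, 46313 to 47788 with TGF-β, 98561 to 236091 in KO1 and KO2, and 700 to 1510 in the rescue clones; FAP was at most 3 in every group. Different single genes made up most of these sums: COL1A1 with TGF-β (46598 and 45007) and DCN in KO1 and KO2 (94978 to 234809), while COL1A1 had 1042 and 815 in KO1. KO2_Rescue had 38285 to 40714 on the fibroblast list and 39691 to 40961 on the epithelial list. The summed epithelial list of 5 genes was 35455 to 37765 in WT, 28680 to 30197 with TGF-β, 10055 to 20579 in KO1 and KO2, 35859 to 40448 in the rescue clones, and 19193 to 23357 in the transduced WT lines. CDH1 was at most 3 in KO1, KO2 and the rescue clones. The summed smooth muscle list of 6 genes was 8.30 to 30.7 in WT, 22.1 to 35.1 with TGF-β, 20.6 to 41.6 in KO1, 48.0 to 84.3 in KO2 and 109 to 208 in KO2_Rescue. SYNPO2 made up most of it in KO2 (34.9 and 81.5) and KO2_Rescue (96.8 and 202). In these libraries LMOD1 and MYOCD were listed at 0, and MYH11, DES and ACTG2 were at most 6.8. Endothelial and leukocyte lists summed to at most 95.9 and 20.1. In bulk RNA, fewer cells of a type and less RNA per cell cannot be told apart, and the part of any cell mixture in the changes above was not tested.

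Across the 11 group means the 10 genes followed each other in part. The points share 1 cell line, 1 normalization and overlapping handling, and the values are descriptions. Pearson's r of log2(normalized count + 1) was 0.92 between TAGLN and MYH9 and between MYL9 and TPM4, 0.86 between TAGLN and CALD1, 0.30 between TAGLN and ACTA2, and -0.60 between TAGLN and THY1. The 5 tested genes whose group means were most like those of ACTA2 were ACTR3, NPL, PDLIM3, ACSS3 and GRIN2A, each with r of 0.98 over 11 groups. ACTR3 encodes a subunit of the Arp2/3 complex, which nucleates branched actin, and PDLIM3 a LIM protein of actin bundles. For TAGLN they were FBLIM1 (0.98), SLC25A4 (0.97), DAPK3 (0.96), EPPK1 (0.95) and ITGAE (0.95). FBLIM1 encodes a filamin-binding protein of focal adhesions and DAPK3 a kinase that phosphorylates the myosin light chain. Each set is the top 5 of 14584 genes compared over 11 groups. Functions are given only for genes with a known actin or myosin role, and a shared function was not tested.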

How the data were processed

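RPTEC libraries (TruSeq Stranded mRNA, paired reads of 150 bases) were quantified by the authors with Salmon 1.9.0 on Ensembl release 94 cDNA (GRCh38). The authors deposited log2 values from DESeq2 1.26.0, in the form of its variance-stabilizing transformation, with a shared minimum of 11.32. How transcripts were summed to genes is not given in the sources used here. Each value was turned back into a normalized count by inverting that form with the minimum taken as 0; this form was inferred from the values.

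The test was limma 3.58.1 (R 4.3.3) with a variance trend, on log2(normalized count + 1) in all 22 libraries, by group, without covariates, over 14585 genes; p-values were adjusted by Benjamini-Hochberg. Recovery was tested on simulated data. Alternatives changed the pseudocount (0.5 or 5), filter, scaling, fitted libraries, replicate block, scale and clone, and left out each library. Genes, positions and exons came from GENCODE 44. Named were the 10 genes in every library, members called in a contrast or with the largest change under the fold threshold, listed genes called against WT plus ACTB, ACTG1 and MYH10, and the 5 genes most like ACTA2 and TAGLN. Members and lists were chosen with earlier results of these data known.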

Additional observations from a re-analysis of the deposited data

Results flagged for a closer look

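The following differences between conditions passed the test of the difference itself in limma. The change from WT in KO1 minus that in KO2 was -1.87 for TAGLN and -2.75 for THY1, on the log2 scale. The change from WT in the KO clones minus that with TGF-β was 1.61 for ACTA2 and 5.49 for THY1, both higher in KO. The same difference was -3.65 for TAGLN, -3.60 for CNN1, -4.07 for MYL9, -1.47 for TPM2 and -1.71 for MYH9, all lower in KO. CNN1 lost its call without the filter (adjusted p = 0.0624 in limma) and when any of several single libraries was left out. WT cancels in these differences, so they are the direct contrasts given above, with the same limits. TPM2 was lower in Rescue1 than in Rescue2 by 1.27 on the log2 scale (-1.27). Groups had 2 libraries, so no library was tested for lying far from its group.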

How the results depend on the processing

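Of 1295 values of 93 named changes under other settings, 1154 kept their direction and their side of the thresholds, 103 lost a call, 20 gained one and 18 changed sign. Scaling every library to the same total moved the median of all genes by -0.20 with TGF-β, -0.39 in KO1, -0.20 in KO2, 0.37 in rescue clones against KO and -0.21 in KO1 against KO2.

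Fitting only the libraries of the groups compared gave 0 members called with TGF-β, 0 in KO1 against KO2, 0 in Rescue1 against Rescue2 and 1 in eGFP against WT. Of the listed genes, PALLD, MYLK, MRTFB and PDLIM7 with TGF-β lost their calls in this setting. So did PALLD, CNN3, MYLK and ROCK2 in KO1, and PALLD and SYNPO2 in KO2. ACTB, ACTG1, ACTN4, FLNA and VCL in KO1 and SMTN in KO2 kept theirs. The deposited log2 values, a scale that is compressed at low levels by its construction, gave 1 with TGF-β, 2 in KO1, 0 in KO2, 2 in KO against TGF-β, 1 in KO1 against KO2, 2 in rescue clones against KO, 2 against eGFP, 0 in Rescue1 against Rescue2, 3 in KO2_Rescue against KO2 and 1 in eGFP against WT. Leaving out 1 library gave 2 to 5 members called with TGF-β (5 without WT replicate 1), 2 to 4 in KO2 (4 without either WT library) and 1 to 2 in KO1 against KO2.

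Values that changed sign in KO1 were TPM2 (-0.37) and CALD1 (-0.06) with equal totals, CNN1 (-1.34), TPM2 (-0.30) and CALD1 (-0.11) without WT replicate 2, CNN1 (-0.62) without KO1 replicate 2 and TPM4 (0.16) without KO1 replicate 1. In KO2 they were TAGLN (-0.13) and TPM4 (-0.03) with equal totals, TAGLN on the deposited scale (-0.02) and without WT replicate 2 (-1.09), CNN1 (0.90), TPM1 (0.26) and TPM2 (0.13) without WT replicate 1, and TPM1 (0.01) without KO2 replicate 1. With equal totals ACTA2 in rescue clones against KO was 0.06 and ACTG1 with TGF-β -0.01, and ACTB with TGF-β was -0.19 under quantile normalization. Over the single libraries left out, the ranges in KO1 were -1.34 to 2.94 for CNN1, -0.30 to 0.38 for TPM2, -0.55 to 0.16 for TPM4 and -0.11 to 0.80 for CALD1. In KO2 they were -1.09 to 1.29 for TAGLN, -3.38 to 0.90 for CNN1 and -0.55 to 0.13 for TPM2. The causes of these changes were not tested.

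Replicate numbers did not pair the samples: deviations of same-numbered libraries correlated at -0.17 to 0.11 over 55 pairs of groups. With the replicate block, 3 members were called with TGF-β, 4 in KO1, 2 in KO2 and 5 in rescue clones against KO, where MYL9 was lost (adjusted p = 0.0575 in limma). The share of all genes called with the block is not given here. With 2 libraries a group, small changes of low genes such as CNN1 and MYL9 were not detectable.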

Other observations

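CNN1 differed widely between duplicates of several groups: it had 41.9 and 1.20 normalized counts in WT, 5.33 and 44.1 in KO1, 44.6 and 4.24 in PRRX1, and 75.6 and 2.09 in SOX2. In the rescue clones and with TGF-β the duplicates were close.

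In eGFP against WT, 7 of the 33 tested genes of the actin, myosin and stress fibre lists were called, where 12.7% of all genes were; they are named here after their values were seen. PALLD (1.76, SE 0.24, adjusted p = 7.6e-05), ZYX (1.61, SE 0.51, adjusted p = 0.0296) and PPP1R12A (1.40, SE 0.37, adjusted p = 0.0107) were higher. TLN1 (-1.78, SE 0.34, adjusted p = 0.00124), SMTN (-1.41, SE 0.14, adjusted p = 3.2e-06), FLNA (-1.35, SE 0.15, adjusted p = 9.8e-06) and RHOA (-1.02, SE 0.33, adjusted p = 0.0316) were lower. PALLD was thus higher than in untreated WT in each of the 4 contrasts that use those 2 libraries, which had 5615 and 2331 normalized counts. Serum and transduction changed together in eGFP against WT and cannot be told apart.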
